A study of Mus musculus with 12 samples.

Results

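The genes described here are 10 genes of the extracellular matrix and of cells at blood vessels: the collagen genes Col3a1, Col6a1 and Col18a1, the laminin genes Lama2, Lama4 and Lamc1, the small leucine-rich proteoglycan genes Dcn and Lum, the fibronectin gene Fn1, and Cd34. They were taken by Entrez Gene ID, and all 10 were found among the 2398 genes of the counts table and passed the filter on low counts. The RNA came from cells sorted from mouse brain for the Ndrg1-EGFP reporter, which labels oligodendrocytes that make myelin, and for exclusion of propidium iodide, a stain for dead cells. The KO group (CnpCre/+;Lmnafl/fl) carries Cre in 1 Cnp allele, and the WT group (Cnp+/+;Lmnafl/fl) has no Cre. All mice were C57BL/6 animals with floxed Lmna and the reporter, aged postnatal day 60 in one label and 8 weeks in another. Cnp is used by oligodendrocytes and Schwann cells, so Cre is placed in the lineage that was sorted, and the genotypes differ in Cre and in intact Cnp copies as well as in Lmna. Each genotype had 3 biological replicates with 2 libraries each, which were summed. Lmna and Cnp are not analysed here, so recombination was not checked.

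The counts in the analysed genes, which lie on chromosomes 1 and 10, ranged from 3694551 to 6093336 per replicate. Levels are given as CPM, in which TMM-scaled totals of these genes bring the replicates to a common depth, so they are not shares of the whole library. Libraries of the same replicate differed little (chi-square over genes divided by its degrees of freedom, 1.00 to 1.06). The p-values for genotype below set the difference between groups against the spread among 3 replicates a genotype, estimated with help from all genes tested.

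Basement membranes are thin sheets of laminin networks, collagen IV, nidogen and perlecan that lie under endothelial cells and around pericytes and astrocyte endfeet in brain vessels. A laminin is a trimer of an alpha, a beta and a gamma chain. Fibroblasts of the meninges and of larger vessels add fibrillar collagen, collagen VI, fibronectin and the proteoglycans decorin and lumican, which bind collagen fibrils. Oligodendrocytes meet laminin through integrins and dystroglycan, and loss of the laminin alpha-2 chain causes muscular dystrophy with white matter changes.

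The 3 collagen genes differ in chain type, and Col18a1 differs from Col3a1 and Col6a1 in level and in pattern over replicates. The 250 bases before their annotated starts are shown to set them side by side. They are credited to RefSeq on GRCm38.p6, in which 5 of the 10 genes had an entry. Capitals mark matches, on either strand, to one of 4 motifs: TATAAA, the TATA box; GGGCGG, a GC box; CCAAT, the motif bound by NF-Y; or TGANTCA, the AP-1 motif. Among 32851 mouse windows of the same length, 12.4% held the TATA box, 32.7% the GC box, 33.8% the NF-Y motif and 6.75% the AP-1 motif.
Col3a1 (chr1:45311288-45311537, plus strand): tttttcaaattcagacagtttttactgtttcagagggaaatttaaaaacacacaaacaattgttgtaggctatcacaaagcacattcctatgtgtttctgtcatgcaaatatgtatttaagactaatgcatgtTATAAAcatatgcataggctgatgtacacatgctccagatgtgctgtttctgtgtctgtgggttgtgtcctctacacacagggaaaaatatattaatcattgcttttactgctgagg
Col6a1 (chr10:76726045-76726294, minus strand): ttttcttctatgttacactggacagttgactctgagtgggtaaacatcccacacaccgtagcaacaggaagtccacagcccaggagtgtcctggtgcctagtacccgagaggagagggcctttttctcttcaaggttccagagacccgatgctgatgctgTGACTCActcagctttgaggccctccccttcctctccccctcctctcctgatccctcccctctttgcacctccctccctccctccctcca
Col18a1 (chr10:77166531-77166780, minus strand): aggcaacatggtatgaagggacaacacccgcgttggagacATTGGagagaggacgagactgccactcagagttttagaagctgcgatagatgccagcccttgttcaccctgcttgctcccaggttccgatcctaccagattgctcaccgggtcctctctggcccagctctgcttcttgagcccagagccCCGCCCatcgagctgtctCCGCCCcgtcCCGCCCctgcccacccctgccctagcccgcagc
The Col3a1 window held 1 TATA box match that begins 117 bases before the start, had a GC content of 35.2% and no CpG. The Col6a1 window held 1 AP-1 match that begins 90 bases before the start and had a GC content of 56.0%. The Col18a1 window shown, before the outermost start, held 3 GC boxes and 1 NF-Y motif, and its GC content of 62.0% was the highest of the 3 (median of all windows 52.4%). RefSeq gives Col18a1 another start, whose window (chr10:77113706-77113955) had a GC content of 57.6% and 0 matches to the 4 motifs. No listed motif overlapped another in these windows. Each match is one of letters, and binding was not measured.

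On mm10, Fn1 spans 71585473 to 71653280, Col3a1 45311538 to 45349706, Lamc1 153218922 to 153332786 and Cd34 194938821 to 194961292 of chromosome 1. On chromosome 10, Lama2 spans 26981285 to 27617191, Lama4 38965515 to 39110188, Col6a1 76708792 to 76726044, Col18a1 77052178 to 77166530, Dcn 97479500 to 97518163 and Lum 97565501 to 97572703. Exons of antisense genes overlap those of Fn1 (292 bases), Cd34 (148 bases) and Lama2 (631 bases), and 1 miRNA gene lies on 141 exon bases of Col3a1. The sources used here do not say whether counting used strand, and these counts could hold reads of the overlapping genes.

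None of the 10 genes differed between KO and WT at an adjusted p under 0.05. By the quasi-likelihood test of edgeR, adjusted by Benjamini-Hochberg, 0 of the 10 genes passed, beside 0 of 1484 genes tested (0%), and at an unadjusted p under 0.05 the count was 0 of 10, beside 59 of 1484 (3.98%). The KO replicates stood apart from the WT replicates in 1 of the 10 genes, Lama4, beside 8.49% of all genes tested in either direction and 4.45% with KO higher. The median log2 fold change, KO over WT, was 0.16 over the 10 genes and -0.0064 over all genes tested, and 7 of the 10 were above 0, beside 49.5% of all genes tested. That median was 0.03 without WT replicate 3 and -0.19 without KO replicate 1, the replicates that stood farthest from the others in these genes, and 0 of the 10 passed in either fit. The adjusted p was 0.994 for each of the 10 genes. The spread among replicates of a genotype was largest for Col18a1, Fn1 and Col6a1. The median within-genotype coefficient of variation of the 10 genes was 55.0%, against 16.8% over all genes tested. Lama2, at 17.5%, and Lamc1, at 24.65%, did not share that wide spread.

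**Figure D1:**
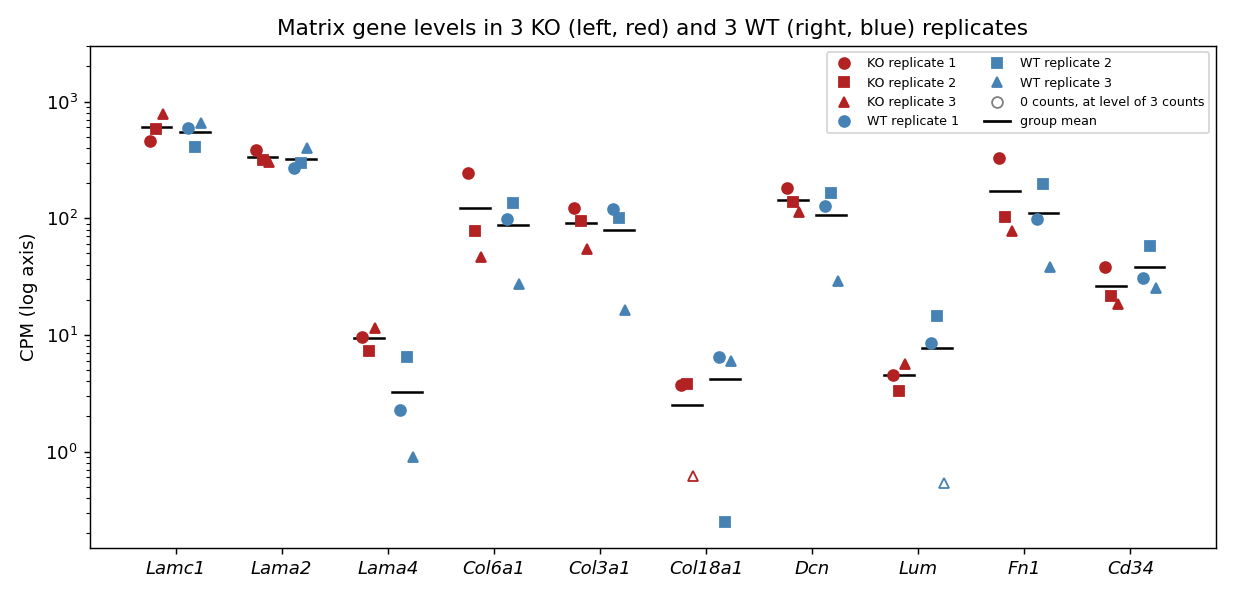
CPM on a log axis of the 10 genes in the 3 KO replicates (red, left) and the 3 WT replicates (blue, right), with black bars at group means and an open symbol at the level of 3 counts where a replicate had 0 counts. Lamc1 and Lama2 lie within a narrow range near the top, and WT replicate 3 lies lowest in Col3a1, Col6a1, Dcn, Lum, Fn1 and Lama4.

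Among the laminin genes, Lamc1 encodes the gamma-1 chain found in most laminins. It stood at 461, 584 and 781 CPM in KO replicates 1, 2 and 3, and at 595, 412 and 654 CPM in WT replicates 1, 2 and 3. KO replicate 3 was highest and WT replicate 2 lowest, and the groups overlapped. Lamc1 had a log2 fold change of 0.14 ± 0.23 (SE), with a 95% interval from -0.38 to 0.65. Lama2 encodes the alpha-2 chain of laminin-211, found in the basement membrane of muscle, Schwann cells and brain vessels. It stood at 385, 314 and 301 CPM in KO replicates 1 to 3 and at 268, 298 and 399.6 CPM in WT replicates 1 to 3. The groups overlapped, with WT replicate 3 highest and WT replicate 1 lowest. The log2 fold change of Lama2 was 0.05 ± 0.18 (SE), and its interval from -0.35 to 0.45 was the narrowest of the 10 genes.

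Lama4 encodes the alpha-4 chain of endothelial laminin-411 and was near the low end of the range. It stood at 9.68, 7.28 and 11.4 CPM in KO replicates 1 to 3, from 34, 46 and 55 counts, and at 2.28, 6.46 and 0.90 CPM in WT replicates 1 to 3, from 12, 26 and 5 counts. Every KO replicate was above every WT replicate, but KO replicate 2, with an exact Poisson 95% interval from 5.33 to 9.71 CPM, and WT replicate 2, with 4.22 to 9.46 CPM, overlapped within counting error. The log2 fold change was 1.57 ± 0.81 (SE), with an interval from -0.26 to 3.40 and an unadjusted p of 0.0846 in the edgeR fit across all genes (adjusted p = 0.994). Without WT replicate 2 it was 2.57 (unadjusted p = 0.0152) and with limma-voom 1.98 (unadjusted p = 0.0333), and neither fit called the gene after adjustment. Lama4 averaged 9.45 ± 2.06 CPM in KO and 3.21 ± 2.89 CPM in WT (SD, n = 3 each). Of the counts of Lama2, the other alpha chain gene analysed, those of Lama4 were 0.0252, 0.0232 and 0.0379 times as many in KO replicates 1 to 3 and 0.00849, 0.0217 and 0.00225 times as many in WT replicates 1 to 3. KO replicate 2 and WT replicate 2 lay close together in that ratio too.

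Among the collagen genes, Col6a1 encodes the alpha-1 chain of collagen VI, a beaded microfibril next to basement membranes. It stood at 243.5, 78.5 and 46.3 CPM in KO replicates 1 to 3, and at 98.2, 135 and 27.5 CPM in WT replicates 1 to 3. KO replicate 1 was highest and WT replicate 3 lowest, and the groups overlapped. For Col6a1 the log2 fold change was 0.50 ± 0.82 (SE), and without KO replicate 1 it was -0.48. Col3a1 encodes the chain of the fibrillar collagen III of vessel walls and loose connective tissue. It stood at 123, 94.5 and 54.4 CPM in KO replicates 1 to 3, and at 121, 100.3 and 16.2 CPM in WT replicates 1 to 3. KO replicate 1 and WT replicate 1 were nearly level, and WT replicate 3 was far below the other replicates. The log2 fold change was 0.19 ± 0.70 (SE), and it was -0.29 without WT replicate 3 and -0.09 without KO replicate 1.

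Col18a1 encodes collagen XVIII, a basement membrane collagen whose C-terminal fragment is endostatin. It had 13, 24 and 0 counts in KO replicates 1 to 3, or 3.70, 3.80 and 0 CPM, and 34, 1 and 33 counts in WT replicates 1 to 3, or 6.46, 0.248 and 5.94 CPM. One replicate of each genotype was at or under the level of 3 counts, 0.621 CPM in KO replicate 3 and 0.745 CPM in WT replicate 2, and the groups overlapped. Col18a1 had a log2 fold change of -0.76 ± 1.33 (SE), with an interval from -3.78 to 2.26, the widest of the 10. Without KO replicate 3 it was -0.18.

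The proteoglycan genes Dcn and Lum are neighbours on chromosome 10, with 47.3 kb and 0 annotated genes between them. Dcn, which encodes decorin, stood at 181, 137 and 112 CPM in KO replicates 1 to 3 and at 127, 163 and 28.8 CPM in WT replicates 1 to 3. The KO replicates lay inside a narrower range than the WT replicates, in which WT replicate 3 was apart. For Dcn the log2 fold change was 0.43 ± 0.58 (SE), and without WT replicate 3 it was -0.016. Lum, which encodes lumican, had 16, 21 and 27 counts in KO replicates 1 to 3, or 4.56, 3.32 and 5.585 CPM, and 45, 59 and 0 counts in WT replicates 1 to 3, or 8.55, 14.65 and 0 CPM. A count of 0 allows up to 3 counts, or 0.54 CPM, in WT replicate 3. The KO replicates therefore lay between WT replicate 3 and the other WT replicates, and the log2 fold change was -0.78 ± 1.23 (SE). Without WT replicate 2 it was 0.094, and without WT replicate 3 it was -1.36.

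The balance of the neighbouring genes was not fixed. Lum had 0.0252, 0.0243 and 0.0497 counts for each count of Dcn in KO replicates 1 to 3, and 0.0673, 0.0897 and 0 in WT replicates 1 to 3. Col6a1 and Fn1, on different chromosomes, kept a steadier ratio, and Col6a1 had 0.738, 0.763 and 0.594 counts for each count of Fn1 in KO replicates 1 to 3 and 0.990, 0.689 and 0.715 in WT replicates 1 to 3. The ratio of Fn1 to Lama2, in contrast, lay between 0.2595 and 0.857 in KO and between 0.0964 and 0.658 in WT. These ratios were chosen after their values were seen and were not tested.

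Fn1 encodes fibronectin, a large adhesive glycoprotein that cells bind through integrins. It stood at 329.7, 103 and 78.0 CPM in KO replicates 1 to 3, and at 99.15, 196 and 38.5 CPM in WT replicates 1 to 3. KO replicate 1 was highest, WT replicate 2 second and WT replicate 3 lowest. For Fn1 the log2 fold change was 0.61 ± 0.79 (SE), and it was -0.30 without KO replicate 1 and 1.31 without WT replicate 2. Cd34 encodes a sialomucin on the surface of endothelial cells, some fibroblasts and blood progenitors. It stood at 38.2, 21.7 and 18.4 CPM in KO replicates 1 to 3, and at 31.0, 58.4 and 25.2 CPM in WT replicates 1 to 3. WT replicate 2 was highest, the groups overlapped, and the log2 fold change was -0.55 ± 0.44 (SE), with an interval from -1.54 to 0.44.

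**Figure D2:**
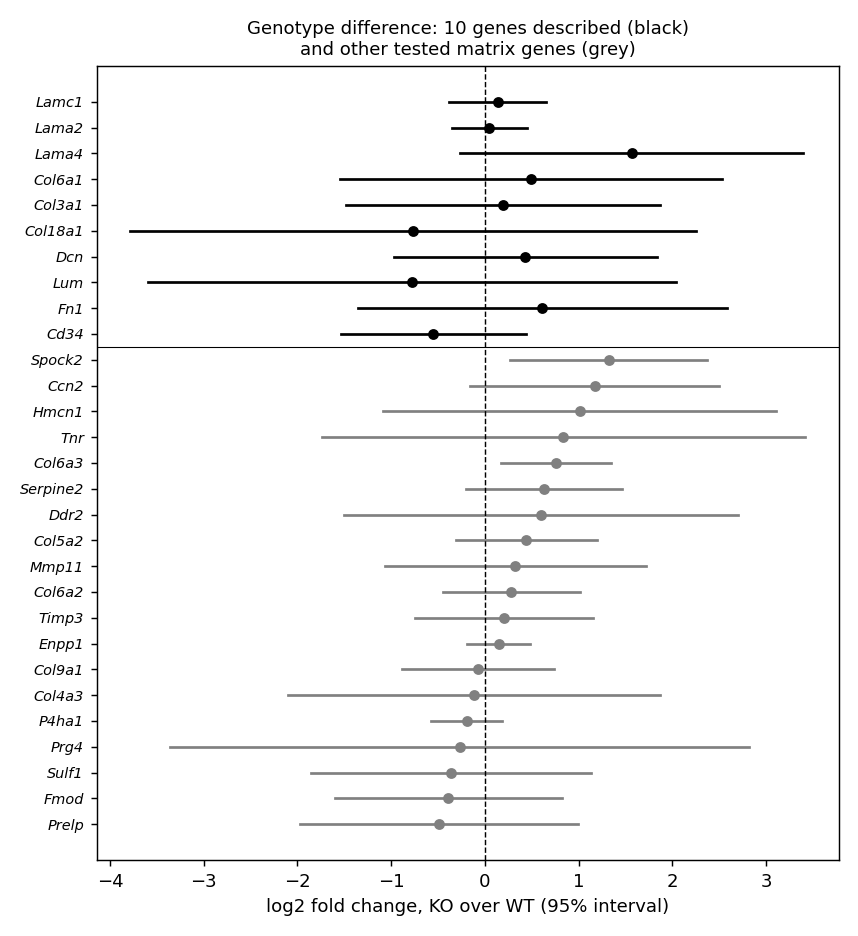
Log2 fold change, KO over WT, with 95% intervals from the edgeR fit, for the 10 genes (black) and the other 19 tested matrix genes (grey), each a row. The intervals of the 10 genes all include 0, and Lama4 has the highest estimate among them at 1.57.

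Levels of different genes were compared per kb of the longest GENCODE M21 transcript, over the 6 replicates. Lamc1 was highest at 76.2 ± 17.5 CPM per kb (SD, n = 6) and lay above Lama2, the next gene, in 6 of 6 replicates. Lama2 stood at 34.1 ± 5.45, Dcn at 26.6 ± 11.3, Col6a1 at 25.6 ± 19.0, Fn1 at 16.9 ± 12.8 and Col3a1 at 15.3 ± 7.51 CPM per kb. Within this group the order changed from replicate to replicate: Lama2 was above Dcn in 5 of 6, Dcn above Col6a1 in 4 of 6 and Fn1 above Col3a1 in 3 of 6, while Col6a1 was above Fn1 in 6 of 6. Cd34 followed at 10.5 ± 4.78 CPM per kb and lay above Lum, at 2.50 ± 2.06, in 6 of 6 replicates. Lama4, at 1.05 ± 0.676, and Col18a1, at 0.600 ± 0.4897 CPM per kb, were lowest, and Lama4 was above Col18a1 in 4 of 6 replicates. No test was made between these genes.

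**Figure D3:**
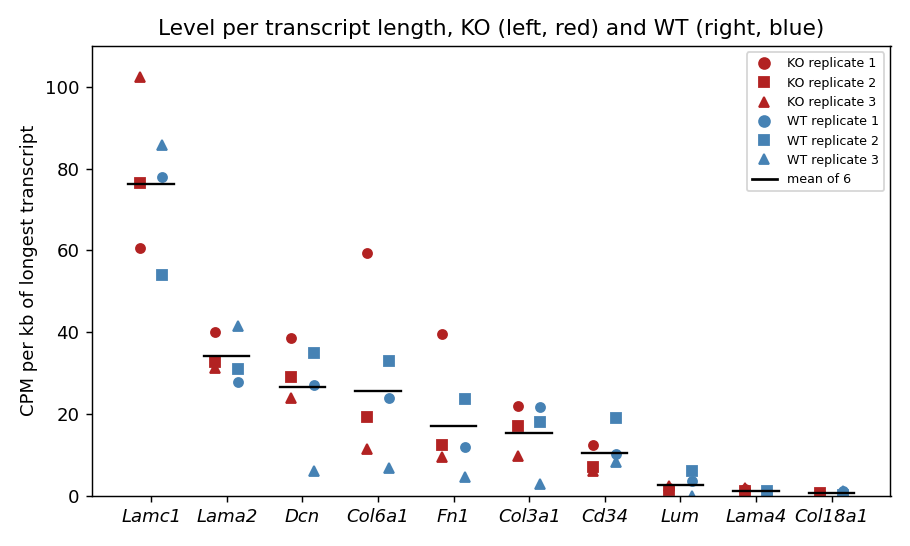
CPM per kb of the longest annotated transcript for the 10 genes, ordered by the mean of 6 replicates (black bars), with KO replicates at left in red and WT replicates at right in blue. Lamc1, at 76.2 CPM per kb, stands above Lama2, at 34.1, and the ranges of Lama2, Dcn, Col6a1, Fn1 and Col3a1 overlap.

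The 10 genes did not vary together as 1 group. Fn1, Col6a1, Col3a1, Dcn, Lum and Lama4 were all lowest in WT replicate 3, where 18.7% of all genes tested were lowest. Col3a1, Col6a1, Dcn and Fn1 were all highest in KO replicate 1, where 15.5% of all genes tested were highest. Across the 6 replicates the Pearson r of log2 CPM was 0.98 between Col6a1 and Fn1, 0.96 between Col3a1 and Dcn, 0.91 between Dcn and Lum and 0.87 between Col3a1 and Col6a1. Lama2 and Lamc1 each took another course, with r of -0.55 and -0.54 to Col3a1, and -0.07 to each other. To Fn1 and Col6a1, Lamc1 had r of -0.78 and -0.80, and Lama2 had r of -0.05 and -0.12. Lamc1 and Cd34 had r of -0.93. These values describe 6 replicates whose scaling and sorting they share, and pairs with Lum and Col18a1 rest on replicates with 0 counts. In WT replicate 3, log2 CPM minus the gene's mean was -2.10 for Col3a1, -1.91 for Dcn and -3.54 for Lum, and 0.30 for Lama2. The r of Lama2 with Col3a1 and those among Col3a1, Dcn and Lum lean on this replicate, and r without it was not computed.

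**Figure D4:**
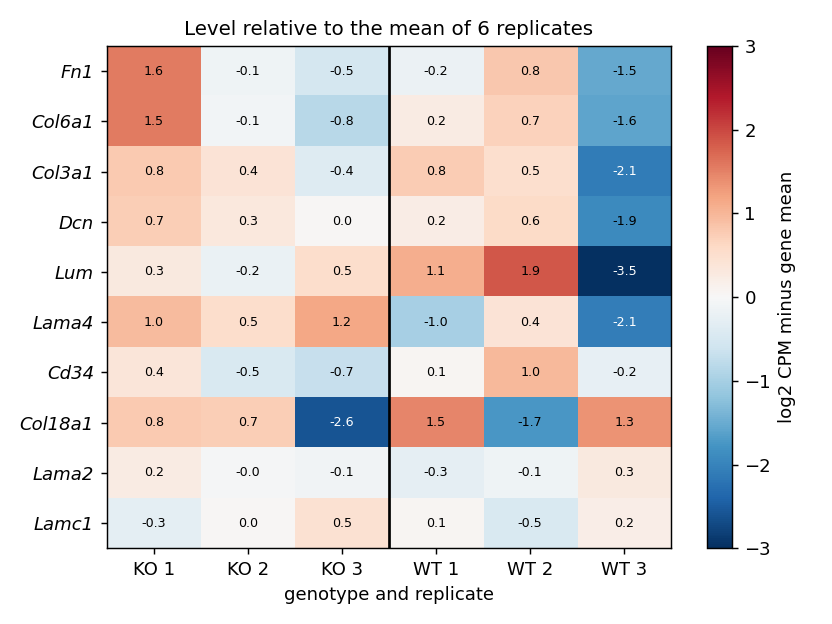
Log2 CPM with a prior count of 2, minus each gene's mean over 6 replicates, for the 10 genes in KO replicates 1 to 3 and WT replicates 1 to 3. The upper rows are blue in WT replicate 3, down to -3.54 for Lum, and red in KO replicate 1, at 1.55 for Fn1, while Lama2 and Lamc1 stay between -0.46 and 0.46.

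Summed, Fn1, Dcn, Lum, Col3a1 and Col6a1 gave 881, 416 and 297 CPM in KO replicates 1 to 3, and 454, 609.7 and 111 CPM in WT replicates 1 to 3. Lama2 and Lamc1 gave 846, 898 and 1081 CPM in KO replicates 1 to 3, and 863, 710.1 and 1054 CPM in WT replicates 1 to 3. The first sum varied several-fold inside each genotype and the second did not. Both groups of genes were set after their values were seen and have no test. Of the counts in the analysed genes, all 10 together made up between 0.139% and 0.169% in KO replicates and between 0.125% and 0.138% in WT replicates. These shares are without TMM scaling. With it, the 10 genes summed to 1779, 1346 and 1408 CPM in KO replicates 1 to 3. In WT replicates 1 to 3 they summed to 1357, 1385 and 1197 CPM, and the groups overlapped. Neither the shares nor these sums were tested. In bulk RNA, fewer cells of a type and less RNA per cell cannot be told apart.

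**Figure D5:**
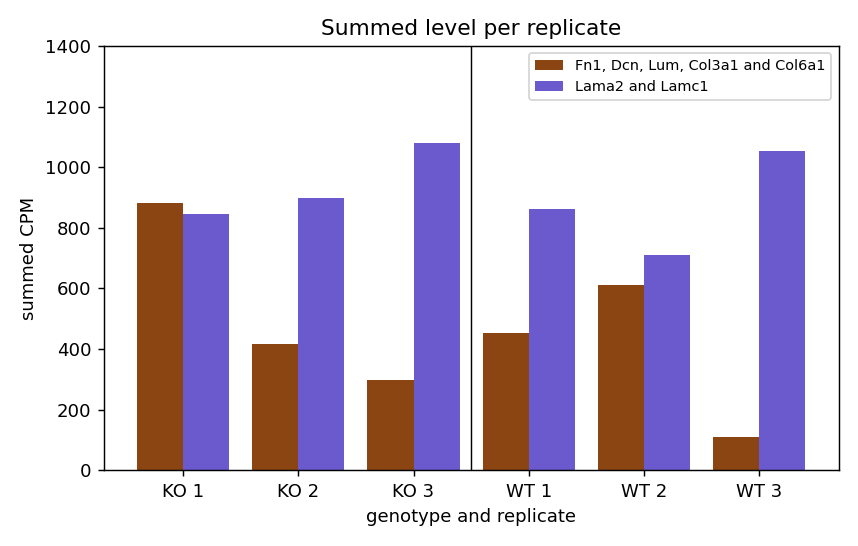
Summed CPM in each replicate of Fn1, Dcn, Lum, Col3a1 and Col6a1 (brown) and of Lama2 and Lamc1 (purple), KO replicates at left and WT replicates at right. The brown bars span 297 to 881 CPM in KO and 111 to 609.7 CPM in WT, and the purple bars 846 to 1081 CPM in KO and 710.1 to 1054 CPM in WT.

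Markers of vascular cells were set beside these values. Of 17 mural cell markers 3 were in the table. Rgs5, a regulator of G protein signalling used by pericytes, stood between 0 and 0.854 CPM in KO and between 0 and 0.190 CPM in WT, and Des, which encodes desmin, did not exceed 0.791 CPM in any replicate. Lmod1, an actin-binding protein of smooth muscle, carried most of that list's sum, which lay between 12.4 and 14.2 CPM in KO and between 12.2 and 24.8 CPM in WT. Of 30 endothelial markers 11 were in the table, and their sum of 3271 to 4301 CPM in KO and 3163 to 4609 CPM in WT was nearly all Bsg, which encodes basigin and is used by many cells. The others did not share a direction. Nrp2, a neuropilin that other cells also use, averaged 60.2 ± 4.27 CPM in KO and 94.9 ± 24.9 CPM in WT (SD, n = 3 each), with an edgeR adjusted p of 0.927. Of the 7 endothelial markers tested, Nrp2 was the 1 whose replicates did not overlap, with KO lower, beside 8.49% of all genes tested. Ackr1, a chemokine receptor of venule endothelium, averaged 5.30 ± 4.37 CPM in KO and 1.44 ± 1.91 CPM in WT, with an edgeR adjusted p of 0.994. Of 19 fibroblast markers 11 were in the table, and Dpt and Tcf21 had no count in any library. The 8 fibroblast markers outside the 10 genes summed to 265, 119 and 83.4 CPM in KO replicates 1 to 3. In WT replicates 1 to 3 they summed to 376, 171 and 48.2 CPM. Igfbp2, an IGF-binding protein, led them at 64.0 ± 50.6 CPM in KO and 116 ± 134.5 CPM in WT. Igfbp2 alone stood at 269.5 CPM in WT replicate 1, where the choroid plexus gene Kcnj13 was also highest. Whether its RNA came from fibroblasts was not tested. WT replicate 3 was lowest in the sum of the 8 markers too. Lama2 and Lamc1 did not have their lowest level in that replicate. The part of other cell types in the levels of the 10 genes was not tested. Rgs5, Des, Lmod1, Nrp2 and Ackr1 were named after their values were seen.

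The other cell types could also move with these genes, and their part in the result was not tested. The astrocyte markers Gja1 and Gpr37l1 summed to 923, 627 and 435 CPM in KO replicates 1 to 3. In WT replicates 1 to 3 their sum was 661, 352 and 271 CPM. It was highest in KO replicate 1 and, like the fibroblast sum, lowest in WT replicate 3. Gja1 took this course, at 736, 186 and 158 CPM in KO and 372, 294 and 92.7 CPM in WT. Gpr37l1 did not, at 187, 442 and 277 CPM in KO and 289, 58.6 and 179 CPM in WT. The 3 microglia and macrophage markers (Fcer1g, Ptprc and Cd48) summed to 149.5, 265 and 49.4 CPM in KO replicates 1 to 3, and to 102, 46.4 and 66.2 CPM in WT replicates 1 to 3. The choroid plexus channel gene Kcnj13 lay between 1.58 and 16.2 CPM in KO and between 4.97 and 131 CPM in WT, with WT replicate 1 highest. The 4 neuronal markers summed to between 1219 and 1326 CPM in KO and between 1117 and 1504 CPM in WT. Atp2b1 and Map2 made up most of that sum. Scg2, also among the 4, stood at 6.83, 36.7 and 5.38 CPM in KO replicates 1 to 3. In WT replicates 1 to 3 Scg2 stood at 2.66, 31.05 and 225.7 CPM, a spread that the sum hides. The only precursor marker in the table, Tnr, stood at 11.8 ± 12.2 CPM in KO and 6.59 ± 5.97 CPM in WT (SD, n = 3 each). Nfasc and Adamts4, the mature oligodendrocyte markers in the table, together stood between 14780 and 17090 CPM in KO and between 10320 and 11900 CPM in WT, and their replicates did not overlap, as in 8.49% of all genes tested. Neither passed the edgeR test, with an adjusted p of 0.927 for Nfasc and 0.5045 for Adamts4.

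The wider matrix gene lists gave no called gene either. Of the 19 further matrix genes tested, 0 passed the edgeR test (lowest adjusted p = 0.927), 12 had a log2 fold change above 0, beside 49.5% of all genes tested, and the median was 0.28. KO and WT replicates did not overlap in 3 of them, Spock2, Col6a3 and Col5a2, all with higher KO values, beside 8.49% of all genes tested in either direction and 4.45% with KO higher. Among 7 tested collagens outside collagen IV, Col3a1, Col6a1 and Col18a1 included, the median log2 fold change was 0.28. Col6a3, the large alpha-3 chain of collagen VI, stood at 96.0, 59.3 and 81.7 CPM in KO replicates 1 to 3, and at 40.65, 53.15 and 45.9 CPM in WT replicates 1 to 3. Its log2 fold change was 0.76 ± 0.26 (SE), with an edgeR adjusted p of 0.927. Col6a2, the alpha-2 chain, stood at 397, 845 and 677.5 CPM in KO replicates 1 to 3, and at 434, 434 and 711 CPM in WT replicates 1 to 3, and the groups overlapped.

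The chains of collagen VI, which assemble together, did not share a pattern. Col6a1 had 0.613, 0.0929 and 0.0684 counts for each count of Col6a2 in KO replicates 1 to 3, and 0.226, 0.311 and 0.0387 in WT replicates 1 to 3. Per kb of transcript, Col6a2 averaged 130.3 ± 46.1 CPM in KO and 107 ± 32.5 CPM in WT, against 29.9 ± 25.8 CPM in KO and 21.2 ± 13.3 CPM in WT for Col6a1 and 7.82 ± 1.83 CPM in KO and 4.61 ± 0.621 CPM in WT for Col6a3 (SD, n = 3 each). Col5a2, a chain of the fibrillar collagen V, stood at 33.5 ± 9.34 CPM in KO and 24.6 ± 1.57 CPM in WT, and Col9a1, a chain of collagen IX, at 51.9 ± 8.05 CPM in KO and 54.6 ± 23.9 CPM in WT.

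Of the other basement membrane genes, Col4a3, a collagen IV chain, stood at 3.30 ± 2.33 CPM in KO and 3.55 ± 1.67 CPM in WT (SD, n = 3 each), and Hmcn1, which encodes hemicentin-1, at 9.18 ± 3.49 CPM in KO and 4.57 ± 3.67 CPM in WT. The log2 fold change was -0.12 for Col4a3 and 1.01 for Hmcn1. Over the 6 tested genes of the basement membrane list, Lama2, Lama4, Lamc1 and Col18a1 included, the median was 0.09. Among small leucine-rich proteoglycans, Prelp stood at 26.0 ± 11.7 CPM in KO and 36.5 ± 26.6 CPM in WT, and Fmod, which encodes fibromodulin, at 8.52 ± 1.05 CPM in KO and 11.2 ± 4.08 CPM in WT. Over the 4 tested genes of this list, Dcn and Lum included, the median log2 fold change was -0.44. Optc and Kera had no count in any library. Among matrix glycoproteins, Spock2, a brain proteoglycan, stood at 30.4 ± 4.01 CPM in KO and 12.1 ± 6.23 CPM in WT, with a log2 fold change of 1.32 ± 0.46 (SE) and an edgeR adjusted p of 0.927. Ccn2, a matricellular growth factor, stood at 38.8 ± 25.1 CPM in KO and 17.2 ± 9.89 CPM in WT, and Prg4, which encodes lubricin, at 54.2 ± 46.2 CPM in KO and 65.3 ± 81.1 CPM in WT. Over the 5 tested glycoprotein genes, Fn1 and Tnr included, the median was 0.84.

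The 7 tested genes of matrix receptors, enzymes and inhibitors had 0.20 as their median log2 fold change. P4ha1, a prolyl hydroxylase that modifies collagen, stood at 826.5 ± 168 CPM in KO and 947 ± 128 CPM in WT (SD, n = 3 each). Enpp1, an ectonucleotidase, stood at 412 ± 65.4 CPM in KO and 372.5 ± 38.4 CPM in WT, and Timp3, a metalloproteinase inhibitor held in the matrix, at 231 ± 122.5 CPM in KO and 200.2 ± 70.4 CPM in WT. Serpine2, a protease inhibitor, stood at 111 ± 36.3 CPM in KO and 71.5 ± 33.8 CPM in WT. Replicates of the genotypes overlapped in each of these 4 genes.

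Among 1199 other genes with a mean of at least 10 CPM, the pattern over 6 replicates most like the mean log2 CPM of the 10 genes by Pearson r was that of Ddr2, a receptor for fibrillar collagen, with an r of 0.982. Ddr2 stood at 76.0, 36.6 and 14.3 CPM in KO replicates 1 to 3, and at 47.1, 32.5 and 4.14 CPM in WT replicates 1 to 3. H3f3a, a histone H3.3 gene, Slc16a9, a monocarboxylate transporter family member, Smpdl3a, a phosphodiesterase, and Kcne4, a potassium channel subunit, followed with r between 0.949 and 0.963. By Spearman rho the order among these genes differed, with 1.00 for Slc16a9, 0.943 for Smpdl3a, 0.886 for Kcne4 and 0.829 for both Ddr2 and H3f3a. The mean log2 CPM of the 10 genes was 6.13 in KO replicate 1 and 4.32 in WT replicate 3, the replicates farthest from the median. Without these, r was 0.873 for Ddr2, 0.763 for H3f3a, 0.991 for Slc16a9, 0.995 for Smpdl3a and 0.631 for Kcne4. The genes were picked for this likeness among many, so the values are a description.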

How the data were processed

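Gene counts of 12 libraries from 6 biological replicates were analysed. The deposited table holds an unnormalized read count for each gene in each library. The submitters' processing notes name the build mm10 and, as tools, featureCounts, HISAT2, fastp, FastQC, SAMtools 1.4.1, DESeq2 1.38.1 and CASAVA 1.8.2. The sources used here give no parameters, annotation or use of strand, and the labels do not say that replicates shared a litter or day.

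Of 2398 complete lines, 2226 matched a RefSeq symbol for GRCm38.p6, and 172, with 0.552% of the counts, did not. One incomplete line was left out. Columns named Ctrl were taken as WT. The libraries of a replicate, whose counts differed little beyond sampling noise (chi-square p from 0.0594 to 0.486), were summed. The genotypes were compared with edgeR 4.0.16 (R 4.3.3), using filterByExpr, TMM factors and robust quasi-likelihood tests, with p adjusted by Benjamini-Hochberg over 1484 genes at 0.05. The common biological coefficient of variation was 0.3495. SE was obtained by dividing the log2 fold change by the root of the F statistic. CPM values use TMM-scaled totals, and an exact permutation test of 3 against 3 cannot give a two-sided p under 0.1. Exact Poisson intervals (95%) and the floor of 3 counts describe counting error alone. Fits were also run on simulated counts drawn for each gene on its own, as a check of the code alone.

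The 10 genes and the lists were chosen with earlier results of these data known. Named were all 10, then called genes of each matrix list or else up to 4 of its other tested genes of highest mean CPM, up to 3 tested markers of each cell type, markers with no count, and the 5 genes of most similar pattern. One marker gene is not reported here and was left out of its list. Alternatives were other size factors, no scaling, other filters, DESeq2 1.42.0, limma-voom (limma 3.58.1), single libraries, a replicate block and leaving out each replicate.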

Additional observations from a re-analysis of the deposited data

How the results depend on the processing

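The count of 0 of the 10 genes past the threshold held under each of the 15 alternatives run, and their adjusted p did not come under 0.05 in any. At an unadjusted p under 0.05 the count was 1 of the 10, Lama4, with limma-voom and without WT replicate 2, and 0 in the other 13. Over all genes the count of 0 moved to 7 with DESeq2 (6 higher and 1 lower in KO) and stayed at 0 in the other 14, with 34 to 86 genes at an unadjusted p under 0.05 in the fits without 1 replicate. The replicate block left 0 of the 10 genes and 0 of 1484 genes past the threshold, with 49 at an unadjusted p under 0.05. Same-numbered replicates had correlated deviations of 0.010, -0.288 and 0.143 across all genes tested, which gave no sign of pairing over all genes. For some of the 10 genes the block narrowed the SE. It fell from 0.82 to 0.41 for Col6a1 and from 0.70 to 0.40 for Col3a1. For Fn1 it fell from 0.79 to 0.56 and for Dcn from 0.58 to 0.43, with smaller falls for Lamc1 and Cd34. The SE rose for Lama2, Lama4, Lum and Col18a1. Whether same-numbered replicates shared conditions was not tested.

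The sign of the log2 fold change turned for 7 genes, for which the cause was not tested. With limma-voom it was 1.19 for Lum. In the fits without 1 replicate it ranged from -0.29 to 0.64 for Col3a1, -0.48 to 0.97 for Col6a1, -0.07 to 0.24 for Lama2, -0.086 to 0.30 for Lamc1, -0.016 to 0.89 for Dcn, -1.36 to 0.094 for Lum and -0.30 to 1.31 for Fn1. It stayed from 1.12 to 2.57 for Lama4, from -1.30 to -0.18 for Col18a1 and from -0.93 to -0.10 for Cd34. Col18a1 was not tested with at least 10 counts in every replicate of a genotype, nor in the second libraries alone. Counts limit Lum, Lama4 and Col18a1, each with at most 59 counts in a replicate.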
